A study of Mus musculus with 6 samples.

Results

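The junctional adhesion molecules F11r (JAM-A), Jam2 (JAM-B) and Jam3 (JAM-C), their relatives Esam and Cxadr, the tight junction scaffold Tjp1 (ZO-1) and the classical cadherins Cdh1 (E-cadherin), Cdh2 (N-cadherin) and Cdh11 are described here by their expected counts. They are 9 of the 24054 genes in the deposited table, found by gene symbol. The 9 genes were selected on gene family and with earlier results of the same contrast known, in which Jam2 stood out. Their differences between the genotypes are therefore given as a description, with no p-value.

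Total RNA was sequenced from the mouse line TIBx, labelled as liver cells of the line BNL 1ME A.7R.1, a chemically transformed line from embryonic liver. The WT group was the parental line, and the other group was the line of genotype DNAJ-PKAc, named for the kinase fusion that marks fibrolamellar carcinoma, in which the start of DNAJB1 is joined to the catalytic part of protein kinase A. Each group had 3 libraries, called A to C, and both lines grew in the same DMEM medium with serum and added glutamine. Nothing in the labels says that these were separate cultures, and the p-values below measure only how libraries vary, which may be technical. Each genotype was 1 line, so the fusion and other differences between the lines cannot be told apart.

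Junctional adhesion molecules are immunoglobulin-type proteins that bind each other across neighbouring cells of epithelia and endothelia and reach the scaffold ZO-1 inside the cell. Cadherins hold cells together through calcium-dependent contacts and are tied to actin by the catenins. In liver, E-cadherin and N-cadherin both mark hepatocyte contacts, JAM-A lies at the tight junctions that seal bile canaliculi, and JAM-B, JAM-C and ESAM are best known from endothelium.

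The table held between 8095549 and 9969590 expected counts per library. A pair of libraries stood apart from the rest. WT B correlated with WT A and C at 0.957 to 0.958 across genes where those 2 reached 0.988, and 2.66% of its counts came from ribosomal Rn45s, against 0.912% to 1.05% elsewhere. DNAJ-PKAc C correlated with A and B at 0.911 to 0.914 where those 2 reached 0.993, and scored -6.89 on the first principal component against 52.8 and 55.4. No pair of one group agreed within sampling noise, so all 6 libraries were counted separately. Prkaca, which encodes the kinase part of the fusion, had a CPM (counts scaled by TMM to a depth of 1e6) of 63.6, 87.6 and 79.2 in WT against 131, 120 and 95.7 in DNAJ-PKAc. Its groups did not overlap, and DNAJ-PKAc C lay closest to WT.

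Of the 9 genes, 4 were at 0 in every library, 2 fell below the minimum count and 3 (Jam2, Jam3 and Tjp1) entered the fit across 10975 genes. In that fit 385 genes passed edgeR's quasi-likelihood test at a Benjamini-Hochberg adjusted p of 0.05, which is 3.51% of those tested. Of these, 150 were higher in DNAJ-PKAc (1.37%) and 235 lower (2.14%), and with upper-quartile scaling the split was 114 to 295. As the 9 genes were chosen on this contrast, no outcome of the test is given for them. Groups of 3 libraries did not overlap in CPM for 28.9% of the tested genes.

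Jam2, the receptor that pairs with JAM-C, was almost undetected in WT and present in every DNAJ-PKAc library. Its counts were 0, 1 and 0 in WT A to C and 62, 51 and 28 in DNAJ-PKAc A to C. In CPM these were 0, 0.117 and 0 against 6.14, 6.30 and 3.41, with counting intervals (95%, exact Poisson) in DNAJ-PKAc of 4.71 to 7.87, 4.69 to 8.28 and 2.27 to 4.93. The groups did not overlap, and DNAJ-PKAc C was the lowest of its group. Over the groups 1 count stood against 141, a depth-scaled ratio of 143 with an interval of 25.2 to 5680 that covers counting error only. Leaving out WT B, which held the single count, left 0 counts, and Jam2 was then at least 32.4-fold higher in DNAJ-PKAc, with 3 counts per group taken as the floor. Leaving out any of the other 5 libraries gave ratios between 94.1 and 166, with 166 when DNAJ-PKAc C was left out. In bulk RNA, fewer cells carrying a transcript and less transcript per cell cannot be told apart.

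Jam2 lies on chromosome 16 at 84774123 to 84826380 on the plus strand (GRCm38.p6). No other gene's exons overlap its own in the reference annotation. Of the 31-base stretches in its longest transcript, 5 of 4340 (0.115%) occur in a transcript of another gene, and none occur in the other 8 genes described here. Whether reads of Jam2 were shared with another gene in the counting was not tested, as the annotation used there was not given.

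F11r, whose product JAM-A sits at epithelial tight junctions and on platelets and leukocytes, had the same direction at a lower level. Its counts were 0, 0 and 0 in WT and 12, 11 and 6 in DNAJ-PKAc, or 1.19, 1.36 and 0.731 CPM with counting intervals of 0.614 to 2.07, 0.678 to 2.43 and 0.268 to 1.59. The groups did not overlap, and as for Jam2 the lowest DNAJ-PKAc library was C. With 0 counts in WT against 29, the level was at least 9.79-fold higher in DNAJ-PKAc over the group floor of 3 counts. The bound ran from 6.45 to 11.3 as each library was left out in turn, and was 11.3 without DNAJ-PKAc C. F11r did not reach the minimum count and was not fitted.

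F11r lies on chromosome 1 at 171437561 to 171464593 on the plus strand (GRCm38.p6), with 55 of 2488 stretches (2.21%) shared with other genes. These shared stretches occur in transcripts of 2792 genes, against 23 genes for those of Jam2. What they add to the few F11r counts was not tested. Among the 9 genes, RefSeq promoter entries (GRCm38.p6, 250 bases before the start and 50 after) were matched for F11r and for Tjp1. They are shown because one gene was at 0 in WT and the other was at a similar level in both genotypes. Capitals mark matches on either strand to the motifs searched: the cAMP response element TGACGTCA, its half-site TGACG, the Snail and ZEB E-box CACCTG, the AP-1 site TGANTCA and the CCAAT box, each with its reverse complement. The half-site lies within the full cAMP response element. The F11r window is chr1:171437311-171437610, plus strand, and the Tjp1 window chr7:65371195-65371494, minus strand, at a start that lies inside the annotated gene.
F11r: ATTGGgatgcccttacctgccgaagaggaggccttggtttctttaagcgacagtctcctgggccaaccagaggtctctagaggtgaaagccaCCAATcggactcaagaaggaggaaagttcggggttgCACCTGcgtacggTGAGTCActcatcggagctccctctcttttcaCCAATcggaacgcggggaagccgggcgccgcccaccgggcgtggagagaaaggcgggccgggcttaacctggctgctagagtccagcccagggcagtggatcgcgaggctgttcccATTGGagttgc
Tjp1: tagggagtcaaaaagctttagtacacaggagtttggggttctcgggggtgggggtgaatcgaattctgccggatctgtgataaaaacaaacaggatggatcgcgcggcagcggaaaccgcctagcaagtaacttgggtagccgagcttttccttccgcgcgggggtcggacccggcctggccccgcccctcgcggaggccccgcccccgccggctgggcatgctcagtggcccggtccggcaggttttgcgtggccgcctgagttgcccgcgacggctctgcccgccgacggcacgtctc

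The F11r window held 1 E-box (CACCTG, 122 bases before the start), 1 AP-1 match (TGAGTCA, 109 bases before it) and 4 CCAAT matches. Among 32851 promoters of the same length, 20.2% held the E-box, 7.81% the AP-1 site and 37.4% the CCAAT box. No match to any motif lay in the Tjp1 window. Neither window held the full cAMP response element, which 1.79% of promoters held, or its half-site, found in 20.8%. GC content was 60.3% for F11r and 65.3% for Tjp1, against a median of 52.7% over all promoters, and the windows held 19 and 31 CpG dinucleotides against a median of 7. A match is a description of the letters in the window and not a bound site.

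**Figure D1:**
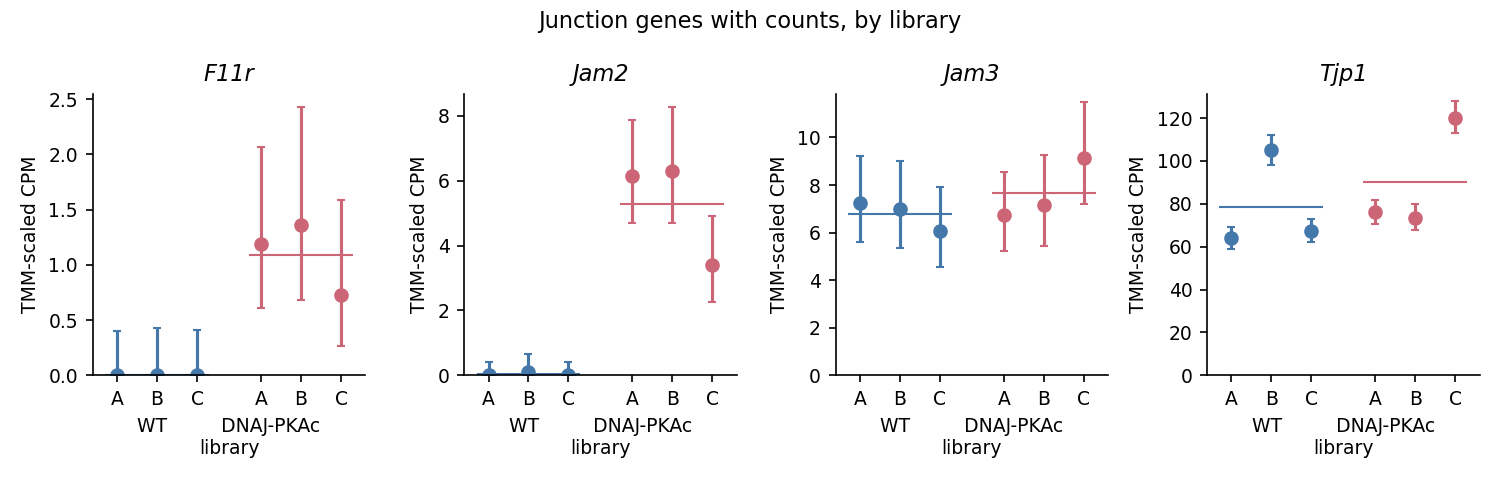
Level of the junction genes with counts in each library, in TMM-scaled CPM (vertical axes), with WT and DNAJ-PKAc libraries A to C along the horizontal axes; bars are exact Poisson intervals (95%) and cover counting error only. Jam2 and F11r are at or near 0 in WT and between 0.731 and 6.30 CPM in DNAJ-PKAc, while the Jam3 and Tjp1 groups overlap.

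Jam3, whose product JAM-C is the partner of JAM-B, was present in both genotypes at similar levels. Its counts were 66, 60 and 55 in WT and 68, 58 and 75 in DNAJ-PKAc, which is 7.23, 7.00 and 6.07 CPM against 6.73, 7.16 and 9.14 CPM. The groups overlapped, with WT C lowest and DNAJ-PKAc C highest. The summed counts of 181 and 201 gave a ratio of 1.13 (counting interval 0.916 to 1.38), and the fitted log2 difference was 0.18 (SE 0.24). Without DNAJ-PKAc C the fitted difference was 0.04. Jam3 lies on chromosome 9 at 27097384 to 27155421 on the minus strand (GRCm38.p6). Its exons overlap those of the antisense gene Gm48796, and 450 of its 1912 stretches (23.5%) also occur in that gene and in no other, so its level is uncertain to the extent that reads were counted without strand.

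Tjp1, the ZO-1 scaffold that joins JAMs, occludin and claudins to actin, was the most abundant of the 9 genes. Its CPM was 64.0, 105 and 67.2 in WT, against 76.0, 73.6 and 120 in DNAJ-PKAc. The groups overlapped, and the highest library of each was the one that stood apart, WT B and DNAJ-PKAc C. The fitted log2 difference was 0.19 (SE 0.28); it was -0.07 without DNAJ-PKAc C, 0.41 without WT B and 0.14 without both. The part of those libraries in the difference was not tested beyond these values. Tjp1 lies on chromosome 7 at 65296165 to 65527850 on the minus strand (GRCm38.p6), and 0 of its 7019 stretches occur in another gene.

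The other JAM relatives were at or near 0. Esam, the endothelial cell-selective adhesion molecule (chromosome 9), had 0 counts in all 6 libraries. Cxadr, the coxsackievirus and adenovirus receptor (chromosome 16), had 1 count in WT A and 0 in the other 5. Its exons overlap those of Btg3, a protein-coding gene on the opposite strand. For a gene at 0, a floor of 3 counts corresponds to 0.0564 CPM over the 6 libraries.

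None of the classical cadherins described was detected in either genotype. Cdh1 (chromosome 8), the epithelial cadherin, Cdh2 (chromosome 18), the neural cadherin that hepatocytes and fibroblasts also use, and Cdh11 (chromosome 8), a cadherin of mesenchymal cells, each had 0 counts in all 6 libraries. Each was thus below 0.112 CPM in WT and 0.114 CPM in DNAJ-PKAc, the level of 3 counts over a group. Among all 23 genes whose symbol is Cdh and a number, 17 were at 0 in every library, 2 (Cdh6 and Cdh24) reached the fit and 0 were called. For comparison, 41.9% of the 24054 genes were at 0 in every library.

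Levels per transcript length (CPM per kb of the longest GENCODE transcript) placed the detected genes in 1 order in DNAJ-PKAc. Tjp1 came first at 12.8 ± 3.72 CPM per kb (SD, n = 3), then Jam3 at 3.95 ± 0.661, Jam2 at 1.21 ± 0.371 and F11r at 0.434 ± 0.129. Neighbours in this order did not overlap between libraries: Jam3 spanned 3.47 to 4.71, Jam2 0.781 to 1.44 and F11r 0.290 to 0.539 CPM per kb. In WT only Tjp1 (11.2 ± 3.23) and Jam3 (3.49 ± 0.316) were at a level above the floor. The order was the same over union exon length, where Jam3 in WT was at 2.12 CPM per kb.

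Jam2 and F11r varied less in ratio to each other than Jam2 did to Jam3. F11r was at 33.6%, 37.4% and 37.2% of the Jam2 level per length in DNAJ-PKAc A, B and C. Jam2 was at 40.5%, 39.1% and 16.6% of Jam3 in the same libraries. The F11r values rest on 12, 11 and 6 counts, and the counting error of these ratios was not measured. Library C was lower for Jam2 and F11r, and higher for Jam3, than libraries A and B. For each of these genes the counting interval of C overlapped those of A and B. For Jam2 the overlap was narrow, at 2.27 to 4.93 CPM in C against 4.71 to 7.87 CPM in A. Its interval in B was 4.69 to 8.28 CPM. Overlap of intervals does not show equal levels, and the difference of C from A and B was not tested. Jam3 was at 24.2% to 41.0% of Tjp1 in WT and 27.6% to 35.3% in DNAJ-PKAc.

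**Figure D2:**
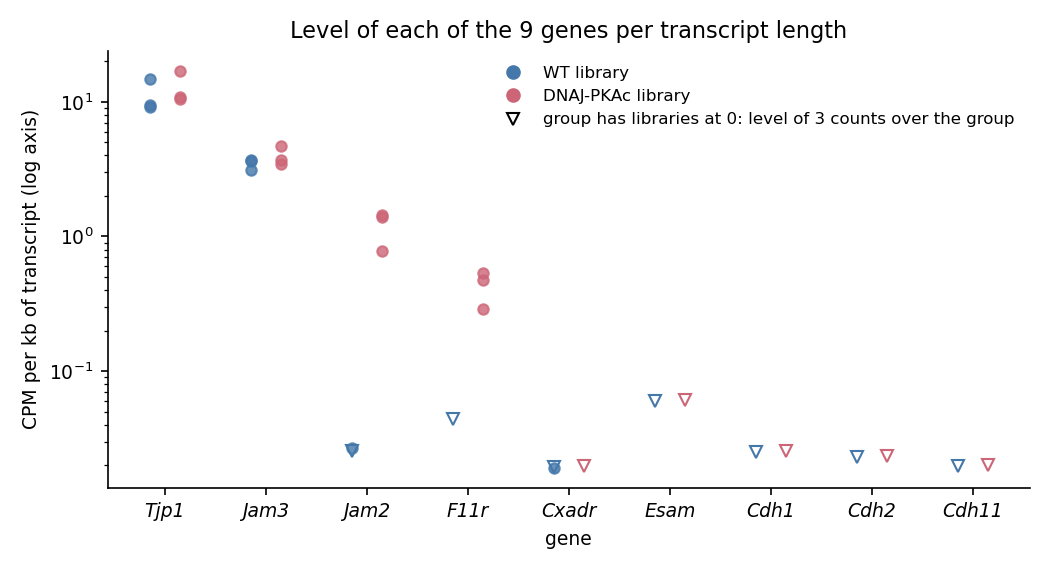
Level of each of the 9 genes per kb of longest transcript (CPM per kb, log axis) by genotype; points are libraries, and triangles mark the floor of 3 counts over the group where any library of the group is at 0. In DNAJ-PKAc the order Tjp1, Jam3, Jam2, F11r is seen without overlap between neighbours, and Esam, Cxadr, Cdh1, Cdh2 and Cdh11 lie at the floor.

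The genes around Jam2 were examined for differences of the same size. Within 500 kb of its start, 4 genes were fitted and 0 passed edgeR's test. The nearest, Mrpl39 (mitochondrial ribosome, 38.9 kb upstream), had a log2 difference of 0.51 (SE 0.25, adjusted p = 0.282). Gabpa, a transcription factor gene 60.8 kb downstream, was at 0.16 (adjusted p = 0.557), and Atp5j, of the ATP synthase, was at 0.39 (adjusted p = 0.243). App, the amyloid precursor gene at 401.1 kb, was at -0.56 (SE 0.42, adjusted p = 0.454). A further 4 genes there, including Mir155, were listed at 0.

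**Figure D3:**
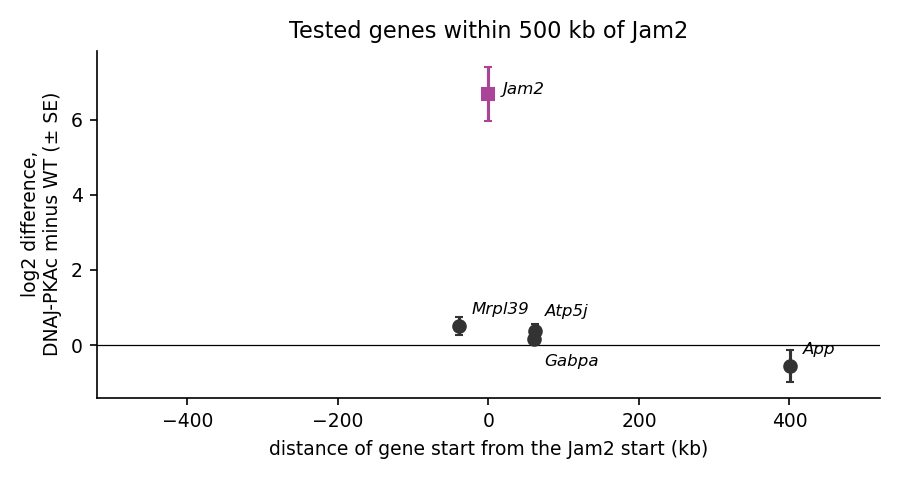
Fitted log2 difference, DNAJ-PKAc minus WT, of the genes that start within 500 kb of Jam2, against distance from its start in kb; bars are SE and Jam2 is drawn without a test. The 4 neighbours lie between -0.56 and 0.51, and Jam2 at 6.68, a fitted value that depends on the prior count.

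The genes whose profile over the 6 libraries was most like that of Jam2 were Fst, Slc22a23 and Arg2, with root-mean-square differences of 0.604, 0.631 and 0.815 on log2 CPM centred on each gene's mean, among 9450 genes of at least 5 CPM. For F11r they were Pcx (0.169), Lrp12 (0.238) and Prtg (0.304). Jam2 and F11r differed from each other by 0.947, and the prior count of 2 narrows the range of F11r at its low counts. For Jam3 the closest reported were Kdm4c (0.0525) and Klhl12 (0.0651), and for Tjp1 they were Gng12 (0.0415), Foxo3 (0.0452) and Pja2 (0.0515). Jam3 and Tjp1 differed by 0.244. These are descriptions over 6 libraries of 2 groups.

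Around the 9 genes, 188 other junction genes in 8 lists were in the table: 65 (34.6%) were at 0 in all libraries, 51 did not reach the minimum count and 72 were tested. Of the 72, 2 rose and 1 fell in DNAJ-PKAc, against the 3.51% called over all genes, and 27 had groups that did not overlap, where 28.9% of all tested genes had such groups. The median log2 difference of the 72 was 0.01, beside 0.05 over all genes tested. Without DNAJ-PKAc C, 20 of 75 were called (9 higher and 11 lower) where 25.3% of all genes were, and with both DNAJ-PKAc C and WT B left out 35 of 72 (15 higher and 20 lower) where 48.5% were.

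The 2 genes that rose were receptor tyrosine phosphatases of the cadherin tail list, which act on catenins at cell contacts. Ptprk had 13.3, 13.7 and 13.6 CPM in the WT libraries and 67.2, 63.6 and 120 CPM in the DNAJ-PKAc libraries, 6.19-fold higher (log2 2.63, SE 0.28, edgeR adjusted p = 0.00687). Its WT libraries were nearly level and all DNAJ-PKAc libraries were higher. Ptprf (LAR) was at 7.01, 18.1 and 8.94 CPM against 62.9, 55.5 and 64.7 CPM, 5.38-fold higher (log2 2.43, SE 0.35, edgeR adjusted p = 0.0171). Ptprf no longer passed when WT A or C, or DNAJ-PKAc A or B, was left out (adjusted p between 0.0608 and 0.0883). Among the 18 tested genes of this list the median was 0.17 and none fell under TMM scaling. Pkp3, a desmosomal plakophilin, was at 32.1, 36.3 and 29.7 CPM against 17.0, 17.0 and 20.7 CPM, without overlap (log2 -0.84, edgeR adjusted p = 0.0514), and was called lower with RLE and with upper-quartile scaling. Its catenins did not pass: Ctnnb1, encoding the beta-catenin that binds cadherin tails, was at 676, 638 and 714 CPM against 526, 540 and 519 CPM (log2 -0.35, edgeR adjusted p = 0.209), without overlap.

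Of the scaffold and polarity genes that work beside ZO-1, 21 were tested, 1 fell and 0 rose, with a median of -0.04. The gene that fell was Cgnl1 (paracingulin, a tight junction plaque protein), with 22.5, 29.1 and 17.2 CPM in the WT libraries against 9.11, 8.15 and 11.2 CPM, 2.41-fold lower (log2 -1.27, SE 0.26, edgeR adjusted p = 0.0468). It did not pass without any one of the libraries other than DNAJ-PKAc C (adjusted p between 0.0883 and 0.19) or with limma-voom (adjusted p = 0.0547). Ybx3, a ZO-1-binding factor, and Prkci, the atypical protein kinase C of the Par complex, were at 0.83 and 0.88 (edgeR adjusted p = 0.064 and 0.118).

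The other membrane genes of tight junctions were mostly absent. Of 32 in the table, 17 were at 0, 11 did not reach the minimum count, 4 were tested and 0 were called, with a median of 0.22. Ocln, encoding occludin, had 2 counts in all. Cldn12, a claudin without a ZO-1 binding end, had the smallest adjusted p at a log2 difference of 0.54 (edgeR adjusted p = 0.092), and per length stood at 26.2 CPM per kb in WT and 38.1 in DNAJ-PKAc, above Tjp1. Tmem47 was at 0.29 (edgeR adjusted p = 0.462). Clmp, another CTX family member, was at 5.03 and 5.01 CPM per kb.

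Integrin chains that bind JAMs on other cells gave 5 tested genes of 10 and 0 calls (median -0.14). Itga4 and Itgam, chains of the receptors for JAM-B and JAM-C, were at 0 in all libraries. Itgb1, the shared beta chain, was at a mean of 843 CPM in WT and 854 CPM in DNAJ-PKAc. Itgav and Itgb2 had the smallest adjusted p, with log2 differences of -0.74 and -0.38 (edgeR adjusted p = 0.300 and 0.377).

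Among 47 other cadherin genes, 26 were at 0, 9 were tested and 0 were called (median -0.38). Pcdh17 and Dchs1 came closest, at log2 differences of -1.39 and -1.48 (edgeR adjusted p = 0.0569 and 0.123), and Pcdh17 was called lower with RLE and with upper-quartile scaling. Cdh13 (T-cadherin, without a cytoplasmic tail), chosen after its values were seen, had 8, 6 and 8 counts in WT and 0 in each DNAJ-PKAc library, at least 7.24-fold lower over the group floor. The clustered protocadherins gave 59 genes, 15 tested and 0 called; their exons are partly shared, so single members are uncertain. Desmosome genes were nearly absent, with 11 of 13 at 0 and 0 tested.

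Of nectins and nectin-like genes 5 of 9 were tested and 0 called (median 0.10). Pvrl1 (nectin-1) and Cadm4 were at log2 differences of -1.25 and 0.97 (edgeR adjusted p = 0.0872 and 0.203). Among regulators of cadherin transcription 10 of 20 were tested and 0 called (median -0.10). The Cdh1 repressors Zeb1 and Zeb2 were present in every library. Zeb1 was at 74.4, 107 and 85.2 CPM in WT against 64.3, 64.7 and 110 CPM in DNAJ-PKAc. Zeb2 was at 96.1, 134 and 105 CPM against 65.1, 64.3 and 83.7 CPM, without overlap (log2 -0.65, edgeR adjusted p = 0.126). Zeb2 was called with DESeq2 and with DNAJ-PKAc C left out. The epithelial regulators Grhl2, Ovol1, Ovol2, Esrp1 and Elf3 had 0 to 3 counts in all, while their relatives Grhl1 and Esrp2 had 23 and 29, both below the minimum count. Twist2 and Klf4 were at 1.33 and -1.17 (edgeR adjusted p = 0.0953 and 0.112).

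**Figure D4:**
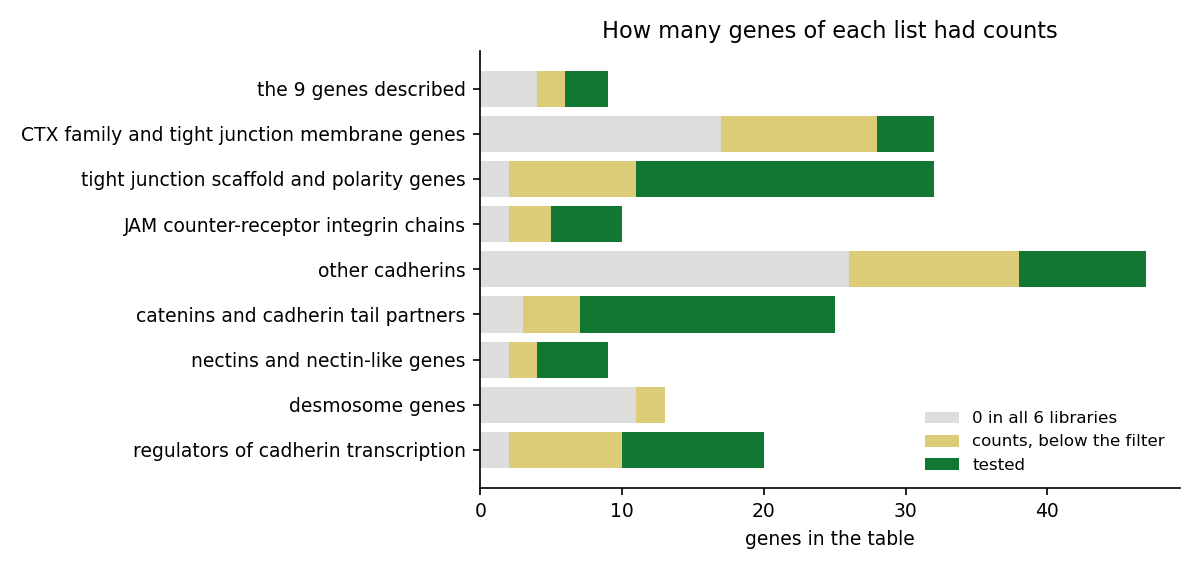
Number of genes in each list (horizontal axis) that were at 0 in all 6 libraries, had counts below the minimum, or were tested. Of the 188 junction genes beside the 9 described, 65 were at 0 and 72 tested; membrane genes, cadherins and desmosome genes hold most of those at 0.

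**Figure D5:**
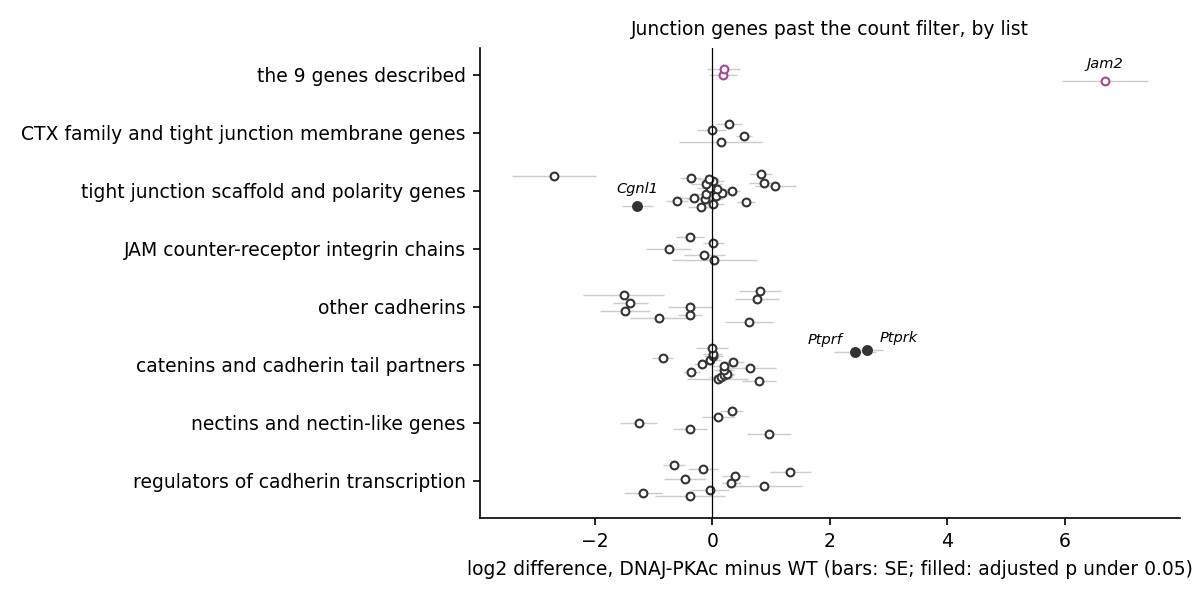
Fitted log2 difference, DNAJ-PKAc minus WT, for each tested junction gene by list, with SE bars; filled points passed an edgeR adjusted p of 0.05, and Jam2, Jam3 and Tjp1 are drawn without a test. Ptprf and Ptprk stand at 2.43 and 2.63 and Cgnl1 at -1.27, and Jam2 lies at 6.68, which depends on the prior count.

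Markers of cell types that use these genes were measured beside them. Of the hepatocyte markers 8 of 9 were at 0, including Alb and Hnf4a, so the labelled liver origin was not seen in hepatocyte transcripts. Of 12 epithelial markers 6 were at 0, and their sum was 7.95 to 8.88 CPM in WT and 1.10 to 1.78 CPM in DNAJ-PKAc. Krt8, a simple-epithelial keratin, made up most of it and fell (log2 -3.09, edgeR adjusted p = 0.036); without it the sums were 0.442 to 0.767 and 0.396 to 0.975 CPM. Mesenchymal markers, led by Vim, summed to 29200 to 34800 CPM in WT and 19100 to 37200 CPM in DNAJ-PKAc, with Thy1 at 0. Of the 11 tested mesenchymal markers 1 passed as higher and 0 as lower, with a median log2 difference of -0.20 and 2 of the 11 above 0. The 1 that passed was Acta2, smooth muscle actin, at 10.5, 10.2 and 7.18 CPM against 35.4, 34.7 and 56.7 CPM. It was 4.55-fold higher (log2 2.19, edgeR adjusted p = 0.0102). Whether the Krt8 and Acta2 calls held with single libraries left out was not examined.

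Jam2 and F11r are also used by endothelium and blood cells. Of 16 endothelial markers 7 were at 0 (Kdr, Cldn5, Emcn, Erg, Lyve1, Sox17 and Robo4), as was Esam. The endothelial sum was 1010 to 1340 CPM in WT and 731 to 878 CPM in DNAJ-PKAc, nearly all Cd34. Without Cd34 the ranges were 9.34 to 16.1 and 10.4 to 12.4 CPM. Of these markers 3 were tested and 0 called, and the groups of all 3 did not overlap, beside 28.9% of all tested genes. Cd34 and Plvap were at log2 differences of -0.60 and -3.45 (edgeR adjusted p = 0.125 and 0.0764). Egfl7 was at 0.53 (edgeR adjusted p = 0.229). Of 10 leukocyte markers 6 were at 0, among them Ptprc, and the sum was 1.63 to 3.07 CPM in WT and 1.71 to 5.19 CPM in DNAJ-PKAc.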

How the data were processed

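Total RNA libraries of the mouse line TIBx, 3 WT and 3 DNAJ-PKAc, were grouped by the labels' genotype and replicate letter. The authors deposited expected counts per gene symbol, not normalized, per the file headers; 1.52% to 1.68% of values per library were not whole. The submitters' processing notes name mm10 as the build and list STAR 2.5.2b and RSEM 1.3.0, with no role for either. The libraries were made with a stranded kit per the labels' protocols; the counting's annotation, filters and strand use were not given in the sources used here, which leaves overlapping and antisense genes uncertain.

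Counts were rounded, filtered with filterByExpr (minimum count 10; 10087 genes were at 0 in all libraries and 2992 below the filter), scaled by TMM and fitted with edgeR 4.0.16 in R 4.3.3 (robust quasi-likelihood, 2-sided test, Benjamini-Hochberg adjustment over 10975 genes, threshold 0.05). With 8095549 to 9969590 counts per library, 1 CPM is about 8 to 10 counts. Intervals (95%, exact) and floors (3 counts) cover counting error only. The members and gene lists were chosen with earlier results of these data known. Named were all 9 genes, the genes called in each list or otherwise the 2 of smallest adjusted p, the 3 closest profiles, the genes within 500 kb of Jam2, marker genes that define or lead their lists, and Prkaca; some genes that this rule names are left out of the text; other list genes given with values were chosen after their values were seen. Same-letter libraries did not deviate together, so letters were not used as pairs. Alternatives were RLE and upper-quartile scaling, no filter, limma-voom 3.58.1, a stricter filter (1 CPM in 3 libraries), DESeq2 1.42.0, non-robust dispersions, a replicate block, each library left out in turn, WT B and DNAJ-PKAc C left out together, a threshold of 0.01 and union exon length. Positions and promoters are from RefSeq on GRCm38.p6, which is the assembly behind mm10, and transcript lengths from GENCODE.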

Additional observations from a re-analysis of the deposited data

How the results depend on the processing

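The calls depended on the libraries and the tool. Over all genes, 385 calls became 974 with DESeq2, 199 with the replicate block, 72 at a threshold of 0.01, 77 to 2808 as each library was left out in turn, and 5336 with DNAJ-PKAc C and WT B both left out. The 3 calls among the other junction genes became 5 with RLE scaling and with upper-quartile scaling (2 higher and 3 lower in each, Pkp3 and Pcdh17 added), 5 with no filter, 16 with DESeq2, 1 at 0.01, 1 to 20 with each library left out, and 35 without both. With the replicate block 3 were called, Ptprf and Ptprk among them, and Cgnl1 was not (adjusted p = 0.125); the letters did not pair the samples (correlations of same-letter deviations 0.211, -0.198 and 0.0282). The fitted log2 difference of Jam2, 6.68, was 6.003 with limma-voom, 6.22 to 8.55 with each library left out, and 8.80 without both. Jam3 and Tjp1 moved by less than the spread between libraries in all 15 alternatives run for each, although Tjp1 changed sign without DNAJ-PKAc C (-0.07). Jam3 per length in WT was 2.12 CPM per kb over union exons and 3.49 over the longest transcript. Ptprk passed in all 15 alternatives. At these depths 3 counts over the 6 libraries correspond to 0.0564 CPM, and a gene under that level could be missed.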
